A study of Mus musculus with 14 samples.

Results

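The genes of the class II antigen presentation route were followed through RNA sequencing of mouse microglia: H2-Aa, H2-Ab1, H2-Eb1, Cd74, Ciita, H2-DMa, H2-DMb1, H2-DMb2, H2-Oa and H2-Ob. They are 10 of the 41739 genes in the deposited table. They were taken by name, as class II chains, the invariant chain, the class II regulator and the peptide-loading chaperones, and all 10 passed the filter on low values. Members were chosen by name with their TPM differences between KO and WT in these libraries in view, so those differences are given for the members as a description, with an SE and no test. The comparison of LPS with PBS was tested.

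Microglia, the resident macrophages of the brain, were purified with magnetic beads (MACS) from 8-week-old mice that had received tamoxifen, a drug that switches on the CreER recombinase. The KO genotype was Rheb F/F; Tmem119-cre ER, in which the microglial gene Tmem119 drives the recombinase that removes Rheb, a small GTPase that activates the growth kinase complex mTORC1. The WT genotype was Rheb F/F without the recombinase, so the Cre allele went with the KO genotype, and its effects and those of Rheb loss cannot be told apart. Both genotypes received intraperitoneal injections on 4 consecutive days, either of LPS, a bacterial endotoxin, at 1.0 mg/kg or of PBS as the vehicle. The 14 libraries were 4 KO LPS, 4 WT LPS, 3 KO PBS and 3 WT PBS. The labels do not say that each library came from its own animal, so the spread between libraries may be partly technical.

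Class II molecules are pairs of an alpha and a beta chain that carry peptides from the endosome to the cell surface, where CD4 T cells read them. The invariant chain Cd74 blocks the peptide groove of new molecules, H2-DM then exchanges its remnant for other peptides, and H2-DO binds to H2-DM and inhibits it. Ciita is the coactivator that switches on the genes of this route, through the RFX, CREB and NF-Y proteins bound to the X and Y boxes of their promoters. Microglia of the unchallenged brain are known for low class II levels, and H2-DO is best known from B cells.

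The promoters of the members are shown first, because these boxes are what the genes are known to share. RefSeq promoters on GRCm38.p6 were matched for 7 of the 10 members, all on chromosome 17, while H2-Ab1, Cd74 and Ciita are named only. The windows below run from 130 to 31 bases before the start of the gene, 5′ to 3′ on its own strand. Capitals mark AGCAAC (a part of the X1 box), ATGATG (a stretch where the X1 and X2 boxes meet) and TGATTGG (the Y box). The windows lie at chr17:34092249-34092348 for H2-Oa, chr17:34145119-34145218 for H2-DMb2, chr17:34153061-34153160 for H2-DMb1 and chr17:34238775-34238874 for H2-Ob, all on the plus strand. Those of the chains lie at chr17:34287854-34287953 for H2-Aa, on the minus strand, and chr17:34305737-34305836 for H2-Eb1, on the plus strand. H2-DMa has 2 starts in RefSeq, with windows at chr17:34122702-34122801 and chr17:34125388-34125487 on the plus strand.
H2-Ob: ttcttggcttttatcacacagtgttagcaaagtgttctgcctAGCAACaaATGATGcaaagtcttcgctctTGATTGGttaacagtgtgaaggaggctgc
H2-Oa: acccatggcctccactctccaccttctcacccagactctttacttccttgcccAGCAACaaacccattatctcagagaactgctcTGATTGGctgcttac
H2-DMb2: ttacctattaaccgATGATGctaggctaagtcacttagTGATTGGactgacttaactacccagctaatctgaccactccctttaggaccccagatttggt
H2-DMb1: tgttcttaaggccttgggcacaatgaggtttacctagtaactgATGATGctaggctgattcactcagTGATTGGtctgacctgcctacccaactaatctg
H2-DMa upstream start: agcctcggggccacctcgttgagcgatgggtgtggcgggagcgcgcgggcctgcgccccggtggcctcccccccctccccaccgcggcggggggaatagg
H2-DMa downstream start: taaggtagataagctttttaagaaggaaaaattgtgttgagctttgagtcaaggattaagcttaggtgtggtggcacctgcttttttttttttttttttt
H2-Eb1: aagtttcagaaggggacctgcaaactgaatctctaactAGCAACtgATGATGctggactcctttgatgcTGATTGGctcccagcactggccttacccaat
H2-Aa: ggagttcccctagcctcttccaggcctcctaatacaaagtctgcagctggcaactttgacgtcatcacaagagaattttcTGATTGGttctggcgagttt

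The 3 motifs were searched on both strands in 32851 RefSeq mouse promoters of 300 bases, and their matches in members did not overlap each other. TGATTGG was present in 7.82% of all promoters and in 6 of the 7 member genes, at 45 to 92 bases before the start. ATGATG was present in 11.2% of all promoters and in H2-Ob, H2-Eb1, H2-DMb1 and H2-DMb2. AGCAAC was present in 14.8% of all promoters and in H2-Ob, H2-Eb1 and H2-Oa. All 3 motifs occurred together in H2-Ob and H2-Eb1, and in 0.134% of all promoters. Neither of the 2 H2-DMa promoters matched here held an exact match to any of the 3, and any other start of H2-DMa was not searched. Only exact letters were searched, so an X or Y box with other letters would go unmarked in any member. H2-Ob thus carries the same 3 motifs as H2-Eb1, and H2-DMb2 and H2-DMb1 carry the same 2. The part of these motifs in the KO to WT differences was not tested. H2-DMb2 and H2-DMb1 are near copies, with 95.9% of bases identical over open reading frames of 786 bases. Their 300-base promoters held 215 identical bases in 345 alignment columns (62.3%), where gaps count as differences. ATGATG lies 116 bases before the start in H2-DMb2 and 87 in H2-DMb1, so the promoters are offset. The 2 percentages are therefore unlike measures, and 62.3% does not give the divergence of the promoters.

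Rheb itself was at 16.6, 19.0 and 19.1 TPM in the KO PBS libraries, against 29.7, 32.2 and 34.5 TPM in the WT PBS libraries. In KO LPS libraries it was at 25.5, 22.9, 23.1 and 19.5 TPM, against 31.8, 32.5, 33.6 and 25.1 TPM in WT LPS libraries, and these groups overlapped. The log2 difference of Rheb was -0.79 ± 0.12 (SE; limma adjusted p = 0.0163) under PBS and -0.42 ± 0.11 (adjusted p = 0.11) under LPS. The call under PBS was lost without KO911, KO912, WT913 or WT914, each left out alone (adjusted p = 0.0604 to 0.0946). TPM is a level scaled for gene length and for the total of the library. Depth, recovered from the TPM values as whole reads, was 7991179 to 21743693 reads in KO LPS, 19270462 to 32281825 reads in WT LPS, 16240301 to 20728492 reads in KO PBS and 15677151 to 18052406 reads in WT PBS. The microglial markers Tmem119 (at least 764 TPM) and P2ry12 were detected at high levels in every library. Tmem119, whose locus drives the recombinase, averaged 2114 TPM in KO PBS, against 3467 TPM in WT PBS, and 844 TPM in KO LPS, against 1733 TPM in WT LPS. Its log2 differences were -0.705 (limma adjusted p = 0.0389) and -1.045 (adjusted p = 0.00857), and the genotypes did not overlap, in the direction of H2-Ob. The call under PBS was lost without any 1 of 5 PBS libraries, all but WT914, or without KO LPS library 3 or WT LPS library 1 or 2 (adjusted p = 0.0521 to 0.149). That under LPS was lost when the LPS groups were fitted alone (adjusted p = 0.11). Whether this difference has a part in those of the class II genes was not tested. KO LPS library 3 and WT PBS library WT914 held pituitary transcripts, with the growth hormone gene Gh at 19670 and 78130 TPM. The design text gives female mice, yet the 6 PBS libraries had the Y-linked gene Ddx3y at 111 to 146 TPM and Xist at most at 0.147 TPM, while the 8 LPS libraries had Xist at 255 to 574 TPM and Ddx3y at most at 0.270 TPM. Treatment and this difference in sex transcripts cannot be told apart in any comparison of LPS with PBS. Within a treatment, both genotypes had the same kind of sex transcripts, but the level of Xist under LPS was 354 to 574 TPM in KO, against 255 to 329 TPM in WT, without overlap (log2 difference 0.66, limma adjusted p = 0.0422). That call was lost without any 1 of 13 of the 14 libraries (adjusted p = 0.0503 to 0.124).

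In order of TPM, Cd74 was the highest member in every group, at 409 ± 175 TPM in KO LPS, 315 ± 77.1 TPM in WT LPS, 784 ± 136 TPM in KO PBS and 749.7 ± 131 TPM in WT PBS (SD, n = 4, 4, 3 and 3). In WT PBS it was followed by H2-Eb1 at 326 ± 71.4 TPM, H2-Ab1 at 224 ± 55.2 TPM, H2-Aa at 182 ± 33.1 TPM, H2-DMb1 at 127 ± 21.4 TPM and H2-DMa at 81.4 ± 11.2 TPM. H2-Ob at 27.4 ± 1.19 TPM, H2-Oa at 26.2 ± 5.21 TPM and H2-DMb2 at 22.2 ± 5.07 TPM came next, and Ciita was lowest at 4.17 ± 0.102 TPM. Of neighbours in this order, H2-Eb1 and H2-Ab1 overlapped, as did H2-Ab1 with H2-Aa, H2-Ob with H2-Oa and H2-Oa with H2-DMb2. In KO PBS the order differed among the chaperones: H2-DMa, at 151 ± 9.82 TPM, overlapped H2-DMb1, at 142 ± 7.92 TPM, while H2-DMb2, at 45.2 ± 6.01 TPM, stood above H2-Oa, at 23.8 ± 4.86 TPM, and H2-Ob, at 10.6 ± 1.24 TPM. The reads behind these values were 43 to 226 per library for Ciita, 144 to 1018 for H2-Ob, 146 to 499 for H2-DMb2, 910 to 3109 for H2-DMa and 890 to 6617 for Cd74.

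**Figure D1:**
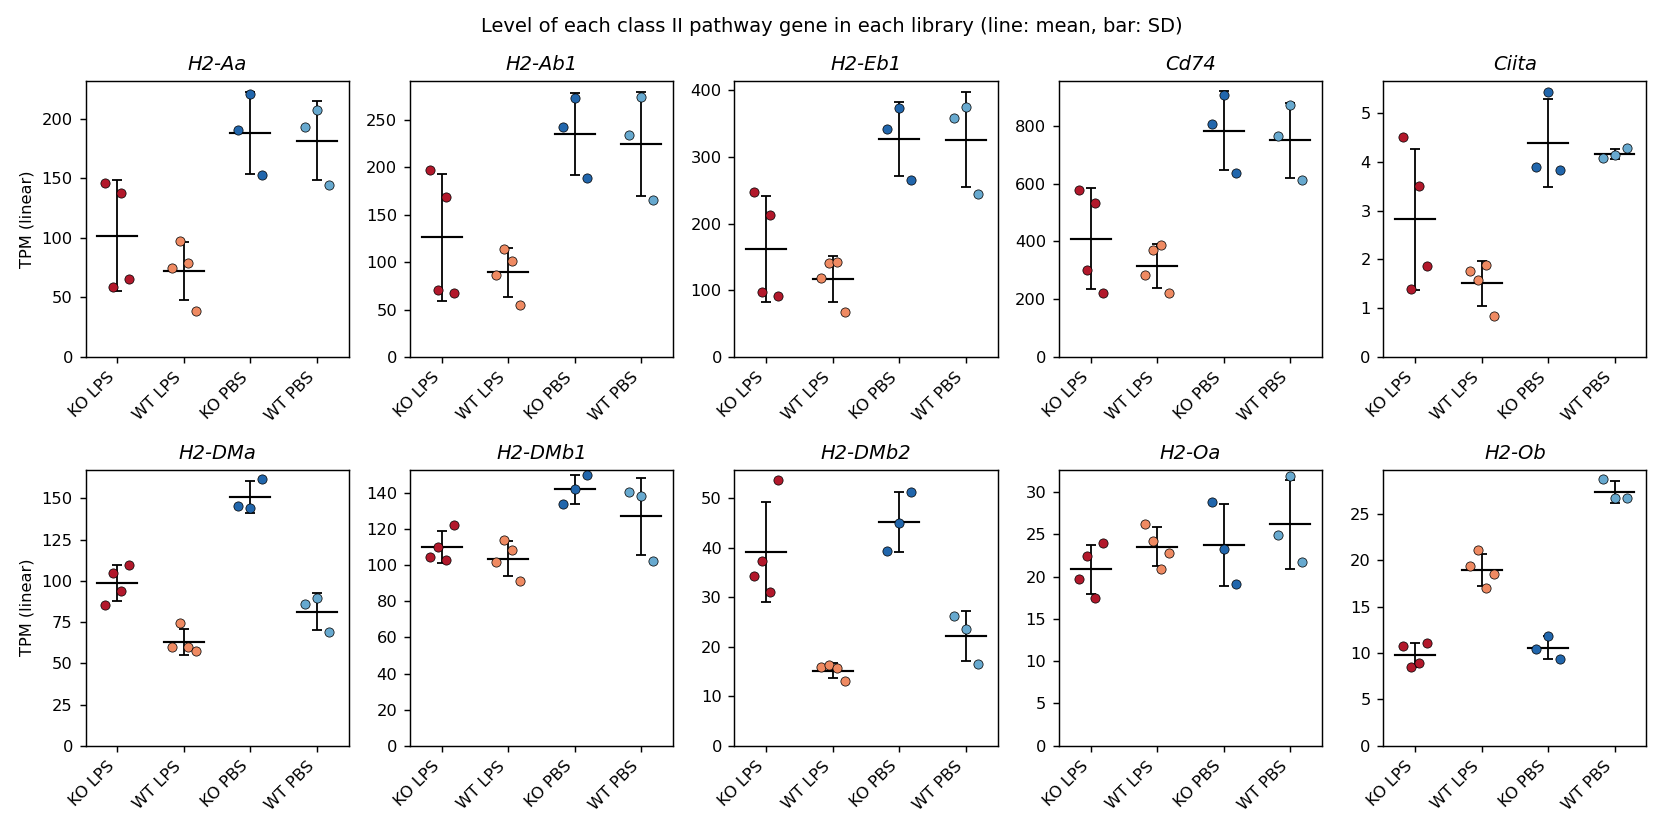
TPM of the 10 genes in each of the 14 libraries, by group (KO LPS, WT LPS, KO PBS, WT PBS), 1 panel per gene, with points for libraries and lines and bars for mean and SD. H2-Ob sits lower in KO than in WT under both treatments, and H2-DMa and H2-DMb2 sit higher. The class II chains and Cd74 have lower means under LPS. H2-Ab1 and Ciita overlap between LPS and PBS in KO.

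H2-Ob, the beta chain of the inhibitor H2-DO, was lower in KO microglia under both treatments. Under PBS it was at 10.4, 11.85 and 9.38 TPM in KO, against 28.75, 26.7 and 26.7 TPM in WT. With LPS it was at 10.7, 8.515, 8.95 and 11.1 TPM in KO, against 19.4, 21.1, 17.0 and 18.5 TPM in WT. All KO libraries lay below all WT libraries, and the 7 KO libraries of both treatments spanned 8.515 to 11.85 TPM. The KO mean was 38.6% of the WT mean under PBS (log2 difference -1.30 ± 0.13, SE) and 51.7% under LPS (-0.89 ± 0.11). H2-Oa, the alpha chain that pairs with it, was at 19.15 to 28.8 TPM in KO and 21.7 to 31.9 TPM in WT under PBS, and at 17.4 to 23.9 TPM in KO and 20.85 to 26.3 TPM in WT under LPS. Its groups overlapped under both treatments, with log2 differences of -0.135 and -0.17. The ratio of H2-Ob to H2-Oa was 0.453 ± 0.0798 in KO PBS, against 1.07 ± 0.208 in WT PBS (SD, n = 3 each), and 0.4755 ± 0.0715 in KO LPS, against 0.809 ± 0.0535 in WT LPS (SD, n = 4 each). The beta chain was thus the lower of the pair in all 7 KO libraries and in 5 of 7 WT libraries.

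H2-DMa and H2-DMb2, subunits of the peptide exchanger H2-DM, were higher in KO. H2-DMa, its alpha chain, was at 146, 144 and 162 TPM in KO PBS libraries, against 85.8, 89.6 and 68.7 TPM in WT PBS libraries. In LPS libraries it was at 85.4, 105.0, 93.8 and 109.7 TPM in KO, against 59.7, 74.2, 59.9 and 57.15 TPM in WT. The genotypes did not overlap within a treatment, and the KO mean was 1.85 times the WT mean under PBS (log2 difference 0.89 ± 0.13) and 1.57 times under LPS (0.64 ± 0.11). H2-DMb2, 1 of its 2 beta chain genes in the mouse, was at 39.3, 45.1 and 51.3 TPM in KO PBS libraries, against 26.3, 23.65 and 16.5 TPM in WT PBS libraries. Its LPS values were 34.4, 37.3, 31.0 and 53.8 TPM in KO, against 15.9, 16.2, 15.7 and 13.02 TPM in WT. Every KO library again lay above every WT library of its treatment, with a KO mean 2.04 times the WT mean under PBS (log2 difference 1.01 ± 0.20) and 2.57 times under LPS (1.28 ± 0.17). WT PBS library WT914, rich in pituitary transcripts, was the lowest WT PBS library for both genes. Without it and KO LPS library 3 the log2 differences under PBS and under LPS were -1.32 and -0.85 for H2-Ob, 0.77 and 0.66 for H2-DMa, and 0.83 and 1.38 for H2-DMb2.

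The other beta chain gene, H2-DMb1, was at 134 to 149.9 TPM in KO PBS, against 102 to 140.4 TPM in WT PBS, and at 103 to 122 TPM in KO LPS, against 91.1 to 114 TPM in WT LPS. These ranges overlapped, and the log2 differences were 0.17 and 0.085. H2-DMb2 thus reached 0.317 ± 0.0246 of the H2-DMb1 level in KO PBS, against 0.173 ± 0.01325 in WT PBS, and 0.352 ± 0.0602 in KO LPS, against 0.147 ± 0.00614 in WT LPS. Reads from these near copies may be split between them, as 25.9% of the 50-base windows in H2-DMb2 transcripts and 22.7% of those in H2-DMb1 transcripts also occur in another gene, and 10.3% and 11.3% of windows of 100 bases. Their summed level was 187 ± 13.9 TPM in KO PBS, against 149 ± 26.4 TPM in WT PBS, and 149 ± 18.9 TPM in KO LPS, against 119 ± 11.1 TPM in WT LPS. H2-DMa overlaps Brd2, a transcription regulator on the opposite strand, over 10.4% of its exon bases, and strand is not stated for these libraries. Brd2 averaged 147.9 TPM in KO PBS, against 121 TPM in WT PBS, and 113 TPM in KO LPS, against 98.8 TPM in WT LPS. Its part in the H2-DMa values was not tested.

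**Figure D2:**
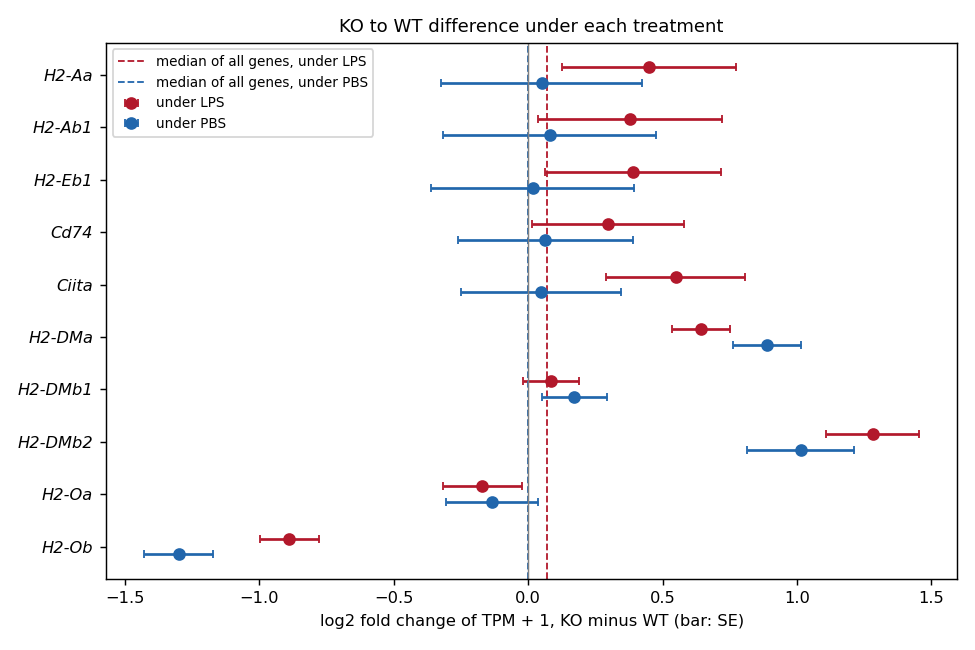
Log2 difference of KO minus WT (points) with its SE (bars) for each of the 10 genes, under LPS and under PBS. H2-Ob is below 0 (-0.89 and -1.30), H2-DMa (0.64 and 0.89) and H2-DMb2 (1.28 and 1.01) are above 0, and the class II chains and Cd74 lie between 0.02 and 0.45.

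Set against H2-Ob within each library, both H2-DM genes separated the genotypes further. H2-DMa was 13.95, 12.2 and 17.3 times H2-Ob in KO PBS libraries, against 2.985, 3.355 and 2.57 times in WT PBS libraries. In KO LPS libraries it was 7.97, 12.3, 10.48 and 9.86 times H2-Ob, against 3.075, 3.52, 3.53 and 3.09 times in WT LPS libraries. The WT ratio thus stayed between 2.57 and 3.53 in all 7 libraries, while the lowest of the 7 KO libraries was at 7.97. H2-DMb2 was 4.35 ± 0.972 times H2-Ob in KO PBS, against 0.807 ± 0.163 times in WT PBS, and 3.97 ± 0.7645 times in KO LPS, against 0.804 ± 0.0943 times in WT LPS. H2-DMb2 exceeded H2-Ob in all 7 KO libraries and was below it in all 7 WT libraries. These ratios use the differences that put the genes on the list, so no test was made of them.

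**Figure D3:**
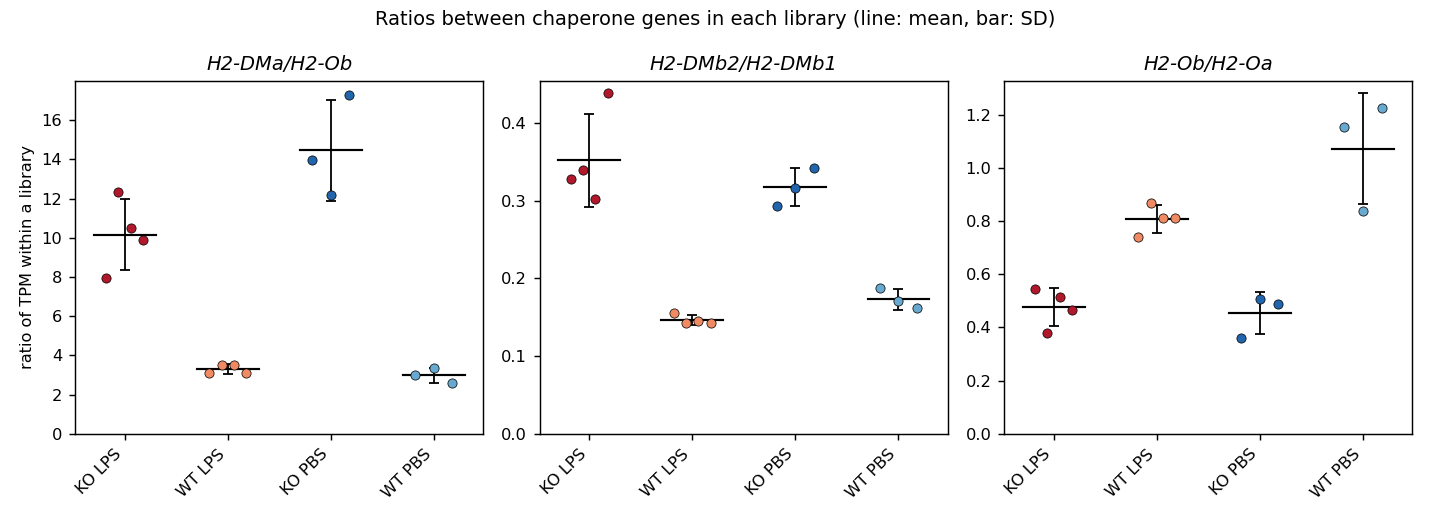
Ratio of TPM within each library for H2-DMa to H2-Ob, H2-DMb2 to H2-DMb1 and H2-Ob to H2-Oa, in KO LPS, WT LPS, KO PBS and WT PBS, with mean and SD. The KO libraries reach 7.97 to 17.3 for H2-DMa to H2-Ob, against 2.57 to 3.53 in WT.

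The class II chains, the invariant chain and Ciita overlapped between genotypes under both treatments. Under PBS, H2-Aa, an alpha chain, was at 191, 221 and 153 TPM in KO and 193.5, 207 and 144 TPM in WT, a log2 difference of 0.05 ± 0.37. Under LPS its values were 146, 58.8, 138 and 65.3 TPM in KO and 74.4, 97.35, 78.9 and 38.4 TPM in WT, a log2 difference of 0.45 ± 0.32. H2-Ab1 and H2-Eb1, both beta chains, and Cd74 had log2 differences of 0.08, 0.02 and 0.06 under PBS and of 0.38, 0.39 and 0.30 under LPS. Ciita was at 3.89, 5.425 and 3.825 TPM in KO PBS and 4.08, 4.135 and 4.28 TPM in WT PBS. In LPS libraries its level was 4.51, 1.39, 3.502 and 1.87 TPM in KO and 1.75, 1.57, 1.88 and 0.833 TPM in WT. The level of the coactivator thus overlapped between genotypes in both treatments (log2 differences 0.05 and 0.55).

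Of all 18724 genes tested, 1.02% were called between KO and WT under PBS (0.796% higher, 0.224% lower) and 0.497% under LPS (0.256% higher, 0.24% lower). With 1 library left out the number called was 8 to 286 under PBS and 18 to 99 under LPS, where it was 191 and 93 with all, the lowest without KO911 and without KO LPS library 3. The groups did not overlap for 25.8% and 6.18% of all genes. Under each treatment the 3 of 10 members that were called and did not overlap were H2-Ob, H2-DMa and H2-DMb2, and since these values chose the members, nothing is read from that count. The median log2 difference of the members was 0.06 under PBS, against 0.00 for all genes, and 0.38 under LPS, against 0.07 for all genes. The change of the KO effect with treatment, the difference under LPS minus that under PBS, was 0.41 ± 0.17 for H2-Ob, -0.25 ± 0.17 for H2-DMa and 0.27 ± 0.26 for H2-DMb2 on the log2 scale. Since the sex transcripts went with treatment, a change of the KO effect with either cannot be told apart. For this interaction 0 of 18724 genes passed in limma, with 1780 at an unadjusted p under 0.05, and voom on the recovered reads also called 0.

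LPS treatment went with lower class II chains and invariant chain in both genotypes. In KO, 6 of the 10 members were lower under LPS and in WT 8 were, in limma on all genes with Benjamini-Hochberg adjustment, and 0 were higher in either genotype. Over all genes, 26.9% were called lower and 7.82% higher in KO (34.7% in all), and 34.1% lower and 7.95% higher in WT (42.0% in all). The LPS and PBS libraries did not overlap for 5 members in KO and 7 in WT, and for 40.8% and 45.9% of all genes. The median of all genes itself moved by -0.22 in KO and -0.28 in WT, and that of the members by -0.59 and -0.79. The count in KO rests on few libraries: it was 1 without KO PBS library KO912, 2 without KO911 or KO LPS library 2, and 3 without KO915 or KO LPS library 4. In WT it was 5 without WT PBS library WT913.

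H2-Eb1 was at 118, 141, 142 and 67.9 TPM in WT LPS libraries, against 358, 375.5 and 244 TPM in WT PBS libraries, a log2 change of -1.50 (adjusted p = 0.00512). In KO it was at 247, 97.8, 214 and 91.9 TPM under LPS, against 342, 374 and 266 TPM under PBS, a change of -1.13 (adjusted p = 0.0258). All LPS libraries lay below all PBS libraries of their genotype, with a wider gap in WT than in KO. H2-Aa changed by -1.38 in WT (adjusted p = 0.00767) and -0.98 in KO (adjusted p = 0.0452), and H2-Ab1 by -1.34 (adjusted p = 0.0119) and -1.04 (adjusted p = 0.0445). Both KO calls were lost without any 1 KO PBS library or without KO LPS library 2 or 4 (limma adjusted p = 0.0581 to 0.147). They were also lost without WT LPS library 1 or 3, WT904 or WT913 (0.0507 to 0.0559). The WT call of H2-Ab1 was lost without WT913 (0.0508). The KO call of H2-Eb1 was lost without KO LPS library 2 or 4, KO911 or KO912 (0.0654 to 0.091). Cd74 was at 283, 369, 387 and 222 TPM in WT LPS, against 766.5, 872 and 611 TPM in WT PBS, a change of -1.27 (adjusted p = 0.00581). In KO it was at 579, 302, 534 and 220 TPM under LPS, against 808, 907 and 637.5 TPM under PBS, a change of -1.03 (adjusted p = 0.0196). For Cd74 too, no LPS library reached a PBS library of its genotype. Its KO call was lost without KO LPS library 2, KO911 or KO912 (limma adjusted p = 0.0531 to 0.0789). H2-Ab1 overlapped in KO, with KO LPS library 1 at 197 TPM and KO915 at 188 TPM. Ciita fell by 1.06 in WT (adjusted p = 0.009), while its change in KO was -0.56 (adjusted p = 0.138). The differences between the genotypes in these changes were 0.23 to 0.50 on the log2 scale and were not called for any member.

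The proportions among the chains varied little between groups. H2-Aa was 0.8395, 0.797, 0.802 and 0.8197 times H2-Ab1 on average in KO LPS, WT LPS, KO PBS and WT PBS. H2-Eb1 was 1.32, 1.31, 1.40 and 1.46 times H2-Ab1, and Cd74 was 3.41, 3.59, 3.345 and 3.39 times H2-Ab1, in the same groups. After subtracting group means, the genes most like H2-Aa over the 14 libraries were H2-Eb1 (Pearson's r of 0.978 on log2 values) and H2-Ab1 (0.975), followed by Ercc4 (0.944). The libraries share depth and cell purity, so these are descriptions. The genes most like H2-Ob by the same measure were Rbm33 (0.923), Fnbp1 (0.903) and Zfp944 (0.9), those most like H2-DMa were Dram2 (0.948), Rab10 (0.926) and Man1a (0.914), and those most like H2-DMb2 were Dnttip2 (0.937), Tnfrsf21 (0.923) and Tlr6 (0.919). No member was among these 9 genes.

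The log2 changes of the chaperones with LPS lay between -0.10 and -0.61. H2-DMa fell by 0.61 in KO (adjusted p = 0.00169) and by 0.37 in WT (adjusted p = 0.0243). H2-DMb1 fell by 0.37 in KO (adjusted p = 0.0233), and its change in WT was -0.28 (adjusted p = 0.0617). H2-DMb2 fell by 0.495 in WT (adjusted p = 0.048), and its change in KO was -0.23 (adjusted p = 0.375). H2-Ob fell by 0.51 in WT (adjusted p = 0.00488), while its change in KO was -0.10 (adjusted p = 0.567). The WT calls of H2-DMa and H2-DMb2 were each lost without WT904, WT913 or WT LPS library 1, 3 or 4 (adjusted p = 0.0509 to 0.193), that of H2-DMb2 also without WT LPS library 2, KO LPS library 1 or 2 or any 1 KO PBS library, and that of H2-DMb1 in KO without KO912, KO915 or KO LPS library 1 or 3 (0.052 to 0.0844). H2-Oa passed in neither genotype, at -0.17 in KO (adjusted p = 0.440) and -0.13 in WT (adjusted p = 0.524). With median-of-ratios scaling the change was above 0 for H2-Ob, H2-Oa and H2-DMb2 in KO and for H2-Oa and H2-DMb1 in WT, and 0 of the 5 chaperone genes passed in either genotype.

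These calls depend on how the libraries are scaled. With median-of-ratios scaling, which brings the median of all genes to 0.00 in KO and 0.01 in WT, 0 members passed in KO and 5 were lower in WT (H2-Aa, H2-Ab1, H2-Eb1, Cd74 and Ciita). The changes of the 3 chains in KO were then -0.72 to -0.86 (adjusted p = 0.0743 to 0.126), and that of H2-Eb1 in WT was -1.16 (adjusted p = 0.0174). The calls over all genes then split into 2331 higher and 1921 lower in KO, where they were 1465 and 5029 without it, and into 3022 higher and 2471 lower in WT, where they were 1488 and 6378. Between KO and WT under LPS they split into 27 higher and 145 lower, where they were 48 and 45.

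**Figure D4:**
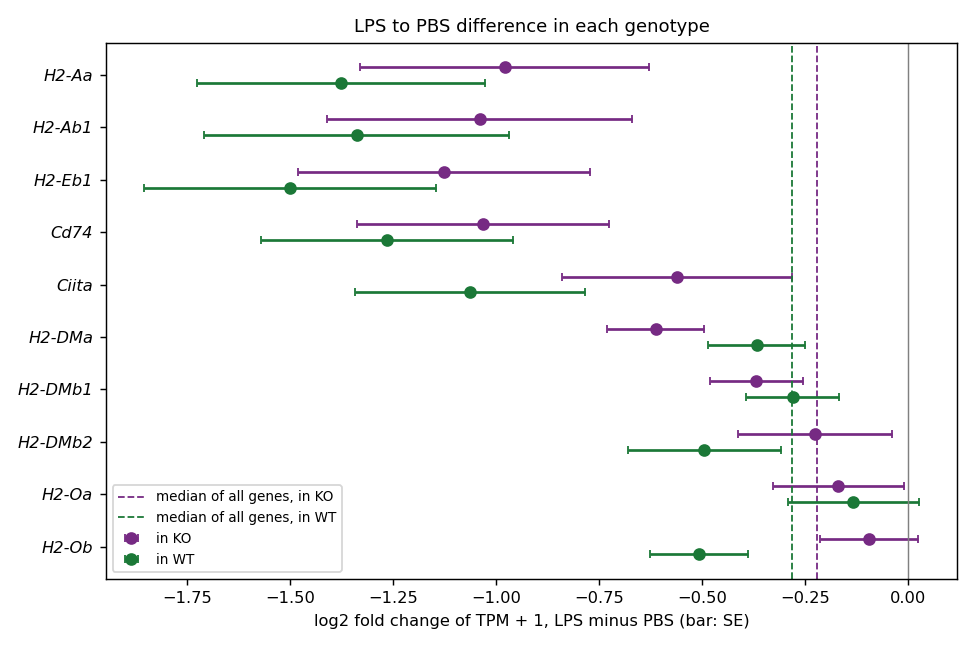
Log2 change of LPS minus PBS (points) with its SE (bars) for the 10 genes in KO and in WT, with the median of all genes marked (-0.22 in KO and -0.28 in WT). H2-Aa, H2-Ab1, H2-Eb1 and Cd74 lie between -0.98 and -1.50, and H2-Oa lies at -0.17 and -0.13, with the sign changing under median-of-ratios scaling.

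Within KO LPS the chains were spread differently from the H2-DM genes. Libraries 1 and 3 were high and libraries 2 and 4 low for H2-Aa, H2-Ab1, H2-Eb1, Cd74 and Ciita, as with H2-Ab1 at 197 and 168.5 TPM in libraries 1 and 3 and 70.45 and 67.8 TPM in libraries 2 and 4. H2-DMa ran the other way, at 85.4 and 93.8 TPM in libraries 1 and 3 and 105.0 and 109.7 TPM in libraries 2 and 4. Library 3 was the pituitary-rich one, and library 1 was not. The summed TPM of 8 dendritic cell markers in libraries 1 to 4 was 96.4, 64.7, 78.1 and 88.0, and that of 9 B cell markers was 404, 270, 313 and 281. The B cell sum was higher in libraries 1 and 3 than in libraries 2 and 4, as the chains were. So were the pituitary sum and the T cell sum, the latter at 9.94, 1.71, 2.82 and 2.25 TPM in libraries 1 to 4. The dendritic, border macrophage, monocyte and microglial sums were not ordered that way. What part other cells had in this spread was not tested.

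**Figure D5:**
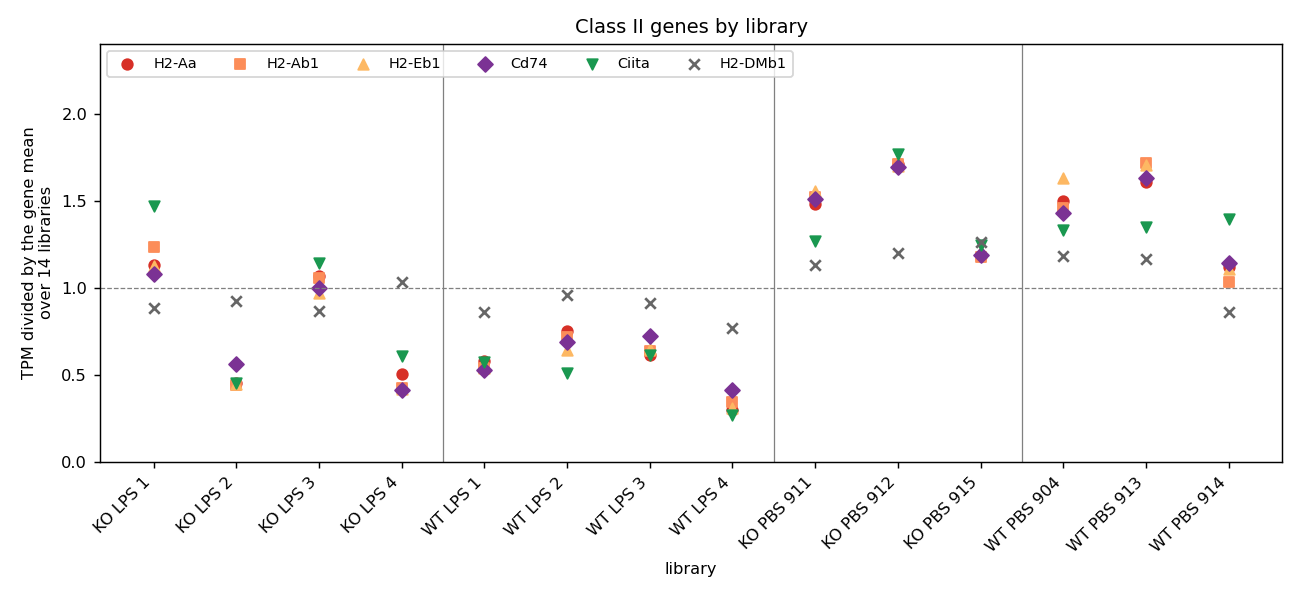
TPM of H2-Aa, H2-Ab1, H2-Eb1, Cd74, Ciita and H2-DMb1 in each library (horizontal axis), divided by the mean of the gene over the 14 libraries (vertical axis). In KO LPS, libraries 1 and 3 lie above libraries 2 and 4 for all but H2-DMb1, and WT LPS library 4 is the lowest of its group.

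Other cells that carry class II could contribute to a bead-purified sample, and in bulk RNA fewer cells of a type and less RNA per cell cannot be told apart. The summed B cell markers were at 306 to 507 TPM in KO PBS, against 444 to 592 TPM in WT PBS, and at 270 to 404 TPM in KO LPS, against 210 to 477 TPM in WT LPS. Their sum is mostly Ighm and Igkc, while the B cell genes Ms4a1 (at most 0.282 TPM), Pax5 (at most 0.201 TPM) and Cr2 (at most 0.302 TPM) were near 0 in every library, and at 0 in 3, 4 and 1 of them. Cd79b, a B cell receptor subunit, averaged 13.8 ± 1.91 TPM in KO PBS, against 24.5 ± 1.86 TPM in WT PBS, and 17.1 ± 4.29 TPM in KO LPS, against 26.3 ± 5.38 TPM in WT LPS, in the same direction as H2-Ob. Dendritic sums were at 64.7 to 96.4 TPM in KO LPS, 66.3 to 91.2 TPM in WT LPS, 89.8 to 119.5 TPM in KO PBS and 78.9 to 106 TPM in WT PBS. Of the 7 dendritic markers tested, 1 was higher and 2 lower with LPS in KO, and 1 higher and 3 lower in WT: Cd209a and Batf3 were lower and Itgax higher in both, and Clec9a was lower in WT. Cd209a, a dendritic lectin, averaged 6.63 TPM in KO LPS, against 38.4 TPM in KO PBS, and 4.87 TPM in WT LPS, against 38.2 TPM in WT PBS. Itgax, an integrin that microglia and macrophages can also express, averaged 35.96 TPM in KO LPS, against 17.4 TPM in KO PBS, and 44.55 TPM in WT LPS, against 16.5 TPM in WT PBS, the opposite direction to the chains. Markers of macrophages at the brain's borders summed to 731 to 1096 TPM in KO LPS, 510 to 1042 TPM in WT LPS, 938 to 1243 TPM in KO PBS and 531 to 1132 TPM in WT PBS. Those of monocytes were higher under LPS, at 1002 to 1594 TPM in KO and 950.1 to 1939 TPM in WT, against 227 to 347 TPM in KO PBS and 212 to 931 TPM in WT PBS. Those of T cells were at most 9.94 TPM. The 10 microglial markers summed to 14130 to 19450 TPM in KO LPS, 18640 to 23140 TPM in WT LPS, 30860 to 32720 TPM in KO PBS and 27710 to 35540 TPM in WT PBS. The part of these markers in the members' values was not tested.

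Of 7 transcription factors that act on class II promoters, 0 passed between KO and WT under either treatment in limma, with 1 under each treatment at an unadjusted p under 0.05 and 0 in voom. Since 1.02% of all genes were called under PBS and 0.497% under LPS, nothing is read from a count of 0 in a list of this size, here or in the lists that follow. With LPS, Nfya fell by 0.60 in KO and 0.31 in WT and Rfxap by 0.42 and 0.46, Creb1 fell by 0.46 in KO, and in WT Nfyc fell by 0.305 and Nfyb rose by 0.33. In WT the changes of Nfya and Nfyc were 0.02 and 0.02, above 0, with median-of-ratios scaling, and those of Rfxap in both genotypes and Creb1 in KO no longer passed. In KO those of Creb1 and Rfxap were also lost without KO912 (adjusted p = 0.0876 and 0.0557), and that of Nfyc in WT without WT LPS library 4 or WT914 (0.0592 and 0.0974). The 3 of 7 called in KO and 4 of 7 in WT stand beside 34.7% and 42.0% of all genes called. Of 10 tested genes on the interferon-gamma route to Ciita, 0 passed between KO and WT in limma, with 2 under each treatment at an unadjusted p under 0.05 and 0 in voom. With LPS, Irf8, an interferon regulatory factor, fell by 0.86 in KO and 0.40 in WT, and Irf4, another, by 1.08 and 1.04. Jak2, a receptor kinase, rose by 0.565 in KO and 0.42 in WT, the receptor gene Ifngr1 fell by 0.39 in KO, and Ifngr2 rose by 0.45 in WT. With median-of-ratios scaling the changes of Irf8 in WT and of Ifngr1 in KO no longer passed. In the tested set of 10, 1 gene rose and 3 fell in KO, and 2 rose and 2 fell in WT, a share near the 34.7% and 42.0% of all genes called. The call of Jak2 in WT was lost without any 1 of the 6 PBS libraries or without WT LPS library 2 or 3 (log2 change 0.281 to 0.473, adjusted p = 0.0532 to 0.135), and that in KO without KO912 (0.0507). That of Ifngr1 in KO was lost without any 1 of the 3 KO PBS libraries, KO LPS library 1, 2 or 3, WT LPS library 1 or WT913 (adjusted p = 0.052 to 0.111), and that of Irf8 in WT without WT LPS library 2 or 4 or WT904 (0.0501 to 0.114).

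Among 8 genes of endosomal processing, 0 passed between KO and WT under PBS in limma (2 at an unadjusted p under 0.05, 1 in voom). Under LPS 2 passed in limma and 5 in voom: Ctsd, a protease, and Cst3, an inhibitor of proteases, fell by 1.01 and 1.13. Ctsd averaged 2358 ± 220 TPM in KO LPS, against 4761 ± 731 TPM in WT LPS, and Cst3 averaged 5414 ± 440 TPM in KO LPS, against 11870 ± 1382 TPM in WT LPS. Neither passed without KO LPS library 3 (adjusted p = 0.0541 for Ctsd and 0.0733 for Cst3), when WT PBS library WT914 was left out as well (limma adjusted p = 0.0574 and 0.0621) or when the LPS groups were fitted alone (0.152 and 0.229). Cst3 alone also missed without KO LPS library 2 or WT LPS library 1 or 2. With LPS, Ifi30, the thiol reductase that opens disulphide bonds of antigens, rose by 1.21 in KO and 1.395 in WT, and Cst3 fell by 1.48 and 0.95. Ctsd fell by 0.77 in KO, and in WT the proteases Ctsl and Ctsb rose by 0.78 and 0.48. The changes of Ctsd in KO and of Cst3 in WT no longer passed with median-of-ratios scaling. Of the genes of class II turnover, March8, a ubiquitin ligase that removes class II from the surface, fell by 0.60 with LPS in WT, though not with median-of-ratios scaling, and March1 passed in no comparison. H2-Eb2, a further beta chain gene, rose by 0.90 in KO with LPS at a level of 1.13 TPM in KO LPS, against 0.0932 TPM in KO PBS. This call was lost with a pseudocount of 5 (adjusted p = 0.0568), with quantile normalisation (0.0578), with the compared groups alone (0.0681), and without KO LPS library 1 or 3, any 1 of the KO PBS libraries or WT904 (0.0501 to 0.117).

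Co-stimulatory genes and checkpoint ligands, the latter inhibitory, act with class II on T cells. Of 6 such genes, 4 rose with LPS in KO and 3 in WT, where 7.82% and 7.95% of all genes were called higher. Cd274, the checkpoint ligand PD-L1, averaged 59.8 ± 11.3 TPM in KO LPS, against 8.79 ± 1.02 TPM in KO PBS, and 64.7 ± 28.1 TPM in WT LPS, against 9.58 ± 1.43 TPM in WT PBS. Of the 6 genes, Cd274, Cd40 and Pdcd1lg2 rose with LPS in both genotypes, by 2.62, 1.87 and 2.14 in KO and 2.56, 1.595 and 2.29 in WT. Cd274 and Pdcd1lg2 are both checkpoint ligands, so Cd40 was the only co-stimulatory gene to rise in both. Cd80 rose by 0.62 and Cd86 fell by 0.58 in KO, the fall of Cd86 not passing with median-of-ratios scaling, and 0 of the 6 passed between KO and WT in limma (1 under each treatment at an unadjusted p under 0.05; in voom 1 under PBS and 0 under LPS). Of 5 tested neighbours of the members on chromosome 17, Tap2, a peptide transporter subunit of class I, was higher in KO under PBS by 0.47 (limma adjusted p = 0.0434), and 0 passed between KO and WT under LPS in limma (0 at an unadjusted p under 0.05, 0 in voom). In voom 0 passed under PBS, Tap2 included. Without any 1 of the 6 PBS libraries its adjusted p was 0.0974 to 0.15. With LPS, Tap1 and Tap2 rose by 0.68 and 0.295 in WT, and Brd2 fell by 0.39 in KO and 0.29 in WT, which was 0.045 in WT with median-of-ratios scaling. The WT calls of Tap1 and Brd2 were lost without WT914 (adjusted p = 0.0559) and without WT904, WT913 or WT LPS library 4 (0.0675 to 0.102). Tap2 lies between H2-Ob and the H2-DM genes, and its KO to WT difference under PBS had the sign of H2-DMa, not that of H2-Ob. Under PBS 4 of the 5 neighbours (Brd2, Psmb8, Tap1 and Tap2) did not overlap between genotypes, all higher in KO. For all genes that share was 25.8%. The median log2 difference of the 5 was 0.289 under PBS, against -0.002 for all genes. Under LPS it was -0.059, against 0.07, and 0 of the 5 were without overlap. Whether position has a part in the members' values was not tested.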

How the data were processed

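The 14 libraries hold total RNA of microglia, extracted with TRIZOL and prepared with a universal kit per the labels' protocols; strand is not stated. The submitters' processing notes name featureCounts 2.0.1 and STAR 2.7.10b, with cutadapt 4.4 and FastQC 0.11.9, and a human build, although the gene IDs are of mouse. The authors deposited TPM per gene, each library summing to 1000000.

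Members and lists were chosen with earlier results of these data known. The 10 members are all named; of the other lists, called genes and up to 2 more of high mean were named. The log2 of TPM plus a pseudocount of 1 was fitted in limma 3.58.1 (R 4.3.3) with 4 group means and an intensity trend, over 18724 genes with at least 1 TPM in at least 3 libraries. Genes were called at a Benjamini-Hochberg adjusted p under 0.05. Fold changes are on this scale, which understates low genes. Whole reads were recovered from TPM times exon length of GENCODE M21 (tolerance 0.02 reads): 98.4% to 98.6% of values above 0 per library and 41189 genes (98.7%) in all libraries were whole. Voom on those reads, an alternative, called 191 genes between KO and WT under PBS, 307 under LPS, and 4448 and 6727 between LPS and PBS in KO and WT. Other alternatives were 2 pseudocounts, 2 filters, 2 scalings, variance models, left-out libraries and fits of compared groups. The fit was tested on simulated data. H2-Ea was not analysed here. Some marker genes are not reported here.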

Additional observations from a re-analysis of the deposited data

Results flagged for a closer look

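In WT LPS, H2-DMa was highest in library 2, at 74.2 TPM, with the other 3 libraries at 57.15 to 59.9 TPM, a gap of 0.841 of the range of the group. In the same group H2-DMb2 was lowest in library 4, at 13.02 TPM, with the others at 15.7 to 16.2 TPM, a gap of 0.848. Both passed Dixon's critical value for 4 libraries. They were 2 of 38 groups tested, and chance alone flags about 1 in 20.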

How the results depend on the processing

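The KO to WT values of the members chose them, so what follows on these describes the settings and is no evidence of stability. With a pseudocount of 5 that of H2-Ob was -1.06 under PBS and -0.696 under LPS. Leaving out 1 library at a time gave H2-Ob -1.38 to -1.226 under PBS and -0.946 to -0.829 under LPS, H2-DMa 0.772 to 0.962 and 0.589 to 0.725, and H2-DMb2 0.825 to 1.145 and 1.121 to 1.379. Of the 10 members, 3 were called between KO and WT under PBS, 1 without WT914 and KO LPS library 3, 1 with the compared groups alone, and 1 to 3 with 1 library left out, the lowest without KO911 or KO912. Under LPS 3 were called, 1 without WT914 and KO LPS library 3, 0 with the compared groups alone, and 2 to 3 with 1 library left out. KO and WT LPS libraries share the numbers 1 to 4. Same-numbered deviations from group means correlated at -0.086 to 0.061, and 1 of 4 KO libraries correlated best with its own number. With 4 such pairs these values cannot settle whether the numbers pair the libraries. With the replicate block 0 members were called.

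LPS calls in KO went from 6 to 0 with median-of-ratios scaling, 2 with voom on recovered reads, 2 with the compared groups alone, and 1 to 6 with 1 library left out. In WT they went from 8 to 5 with median-of-ratios scaling, 5 with quantile normalisation, and 5 to 9 with 1 library left out. Signs turned for values near 0. In KO, H2-Ob was 0.145, 0.074 and 0.08 and H2-Oa was 0.084, 0.036 and 0.009 with median-of-ratios scaling, quantile normalisation and voom, and H2-DMb2 was 0.032 with the first. In WT, H2-Oa was 0.192, 0.136 and 0.038 with the same 3 settings and -0.254 to 0.013 with 1 library left out, the highest without WT913. H2-DMb1, Brd2, Nfya and Nfyc were 0.055, 0.045, 0.022 and 0.024 in WT with median-of-ratios scaling. The causes were not tested. Of the other single-gene values over all settings, 226 lost their call in the same direction, 5 gained one and 2165 stayed on their side. Depth limits Ciita most, at 43 to 226 reads per library.

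Over all genes, 191 were called between KO and WT under PBS, 19 without WT914 and KO LPS library 3, 65 with no intensity trend, 79 with no filter, 109 with the compared groups alone, 387 with quantile normalisation and 999 with library weights. With 1 library left out it was 8 without KO911, 10 without KO912, 39 to 50 without 1 of the other PBS libraries and 86 to 286 without 1 of the LPS libraries. Under LPS 93 were called, 0 with the compared groups alone or the replicate block, 8 without those libraries, 32 with no filter, 47 with no intensity trend, 141 with a filter of 5 TPM, 168 with library weights, 172 with median-of-ratios scaling, 211 with quantile normalisation and 307 with voom, and with 1 library left out 18 without KO LPS library 3 and 33 to 99 without another. For LPS against PBS they were 6494 in KO, 4252 with median-of-ratios scaling; in WT 7866 and 5493.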
